A study of Mus musculus with 8 samples.

Results

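The genes described here belong to class I antigen presentation: the classical heavy chain genes H2-K1 and H2-D1, the non-classical heavy chain genes H2-T23, H2-T22, H2-Q4, H2-Q6 and H2-Q7, the light chain gene B2m, the peptide transporter subunit gene Tap1 and the tapasin gene Tapbp. These 10 genes were chosen by name, with earlier results of the same data known, so their differences between the sorts are given as descriptions without a test. Of the 10 genes, 7 had a row in the tables, which together held 18174 gene symbols. H2-K1, H2-T22 and H2-Q7 had no row under those symbols in the tables used here, and H2-D1 therefore stands alone for the classical genes.

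The cells were sorted as long-term blood stem cells (LT-HSC), taken from untreated male C57BL/6J wildtype mice of 18 months. Marrow of several bones was pooled, enriched for lineage-negative cells with a bead kit made for mouse CD4 cells, and gated as Lin-CD150+CD48-CD34-Kit+Sca1+, either Dlk1+ or Dlk1-. Dlk1 is a transmembrane protein related to the Notch ligands. Each sort had 4 libraries, with replicates 1 and 2 on plate 5 and replicates 3 and 4 on plate 6, plates being known from the names of the tables. The labels name no animal, so the number of mice behind a sort is unknown and any p-value measures only the spread between these libraries.

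Class I molecules carry peptides from inside the cell to its surface, where T cells read them. A heavy chain pairs with beta-2-microglobulin, the product of B2m, in the endoplasmic reticulum; the transporter made of Tap1 and Tap2 brings peptides in, and tapasin holds the empty molecule beside the transporter until it is loaded. H2-T23 encodes Qa-1, which typically presents a peptide cut from the signal sequence of classical class I chains and is bound by the CD94-NKG2A receptor of natural killer cells and some T cells. H2-Q6 and H2-Q4 lie in the Qa region beside the classical genes. Interferons raise the transcription of many of these genes.

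All class I heavy chain genes among the 10 listed, and both Tap1 and Tapbp, lie on mouse chromosome 17. In GENCODE release 21, on the mm10 assembly that the submitters' processing notes name, H2-D1 spans chr17:35262730-35267499 on the plus strand and H2-T23 spans chr17:36029773-36032855 on the minus strand. B2m lies apart, at chr2:122147686-122153083 on the plus strand. The antisense gene A930015D03Rik, which overlaps H2-T23, had 2 UMIs in all libraries, and Patl2, which overlaps B2m on the other strand, had 1. Psmb9 overlaps Tap1 on the other strand and had 166 UMIs, so reads of these 2 genes could be confused if counting ignored strand, which is not given in the sources used here. Zbtb22, with 72 UMIs, overlaps Tapbp on the same strand and was the gene sharing 3' words with it (0.923% of the words of Tapbp), so strand would not separate the reads of these genes. Some 3' sequence of the heavy chain genes also occurs in other genes, class I or not. Of the 40-base words in the last 500 bases of annotated transcripts, 24.2% of those of H2-D1, 39.2% of those of H2-Q6 and 18.2% of those of H2-T23 also occurred in another gene. H2-T23 shared the most words with Rab33b, and Efr3a was among the genes sharing most with H2-Q6. These shares therefore do not measure sharing among class I chains alone. H2-K1 was the gene sharing most words with H2-D1, and assignment among the H2-D1, H2-K1 and H2-Q genes is therefore uncertain. B2m and Tap1 shared none (0 words).

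The 250 bases before the RefSeq transcription start (GRCm38.p6) are shown for the 3 genes that the comparison between H2-T23, the classical chain and the shared light chain turns on. Capitals mark 4 motifs searched on both strands: GAAANNGAA, from the core of an interferon-stimulated response element; GGGGATTCC, from the NF-kB site of the class I enhancer A; TGACG, the core of the X2 box; and CCAAT, the core of the Y box. No match in the 3 sequences overlapped another. The positions are chr17:36032702-36032951 on the minus strand for H2-T23, chr17:35262844-35263093 on the plus strand for H2-D1 and chr2:122147437-122147686 on the plus strand for B2m.
H2-T23: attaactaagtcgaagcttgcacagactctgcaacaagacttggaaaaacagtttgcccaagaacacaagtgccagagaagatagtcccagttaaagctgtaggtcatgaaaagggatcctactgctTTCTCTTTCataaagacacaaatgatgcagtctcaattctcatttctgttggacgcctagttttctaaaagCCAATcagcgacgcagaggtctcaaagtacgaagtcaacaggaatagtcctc
H2-D1: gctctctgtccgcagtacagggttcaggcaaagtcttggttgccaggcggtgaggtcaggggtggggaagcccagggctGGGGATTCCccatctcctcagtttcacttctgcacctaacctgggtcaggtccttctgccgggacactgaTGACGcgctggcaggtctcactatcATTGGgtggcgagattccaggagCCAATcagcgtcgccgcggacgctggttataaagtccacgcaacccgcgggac
B2m: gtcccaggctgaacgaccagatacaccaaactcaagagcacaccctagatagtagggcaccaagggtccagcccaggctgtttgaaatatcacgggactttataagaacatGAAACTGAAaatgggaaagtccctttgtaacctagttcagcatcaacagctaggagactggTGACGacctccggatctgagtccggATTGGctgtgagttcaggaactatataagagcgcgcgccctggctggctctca
The H2-T23 sequence held a match to GAAANNGAA, on the reverse strand 123 to 115 bases before the start. It also held a CCAAT match, but neither GGGGATTCC nor TGACG. H2-D1 held GGGGATTCC, TGACG and CCAAT in both orientations, and no match to GAAANNGAA. Its window did hold the letters tttcacttc, which on the reverse strand have the parts of that motif in the other order. That order was not searched, so the lack of a match does not set H2-D1 apart in interferon elements. B2m held a match to GAAANNGAA, TGACG and a reverse CCAAT. Among 32851 promoter sequences of the same length, 7.13% held GAAANNGAA, 0.213% held GGGGATTCC, 17.8% held TGACG and 33.8% held CCAAT. A match describes letters in this window and not binding, and the lack of a match does not show that a related element is absent.

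The Dlk1- libraries held 36 to 96 cells each, 321 in all, and the Dlk1+ libraries 26 to 86, 220 in all, each with at least 1000 transcripts. Library totals ran from 230443 to 517559 transcripts in Dlk1- and from 39073 to 456925 in Dlk1+. The median per cell ran from 1300 transcripts in Dlk1+ replicate 3 to 5584 in Dlk1- replicate 2. Barcodes mark wells, so libraries of a sort reuse them (84 of 86 Dlk1+ and 96 of 96 Dlk1- barcodes occurred in more than 1 library) and the sorts share 0. All 10 LT-HSC markers had a row, with sums of 1664 to 2641 CPM (the usual scale by library depth, a gene's transcripts relative to the library total) in Dlk1+ and 1941 to 2438 CPM in Dlk1-. All 7 T cell markers were without a row. The 6 natural killer markers summed to 65.7 to 146 CPM in Dlk1+ and 17.4 to 50.3 CPM in Dlk1-, with Gzma, Prf1 and Klrd1 without a row. Most of that sum was Klrb1c alone, at a mean of 86.1 CPM in Dlk1+ and 25.8 CPM in Dlk1-. Nkg7 stood at 15.4 and 9.19 CPM and overlapped between the sorts, and Ncr1 had UMIs in 1 library. The 5 stromal markers summed to 28.5 to 107 CPM in Dlk1+ and 7.73 to 30.4 CPM in Dlk1-. The part of such cells in the results was not tested. In Dlk1+ replicate 4, 1 barcode had 6.67% of its UMIs from granulocyte genes and held 8.07% of the library's UMIs, against at most 0.0649% of granulocyte UMIs in any other barcode there. In sums over a library, fewer cells with a transcript and fewer transcripts per cell cannot be told apart, so shares of cells are given beside the sums.

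H2-T23 was lower in every Dlk1+ library than in any Dlk1- library. In the Dlk1- libraries its level was 317, 295, 288 and 403 CPM in replicates 1 to 4, from 68 UMIs in replicate 2, the smallest of the 4 libraries, to 164 UMIs in replicate 1 and more in replicate 4. In the Dlk1+ libraries it was 60.7, 29.3, 0 and 212 CPM, from 24, 3, 0 and 97 UMIs. The groups did not overlap, and Dlk1+ replicate 4 lay far above the other Dlk1+ libraries. The means were 326 ± 52.7 CPM (SD, n = 4) and 75.6 ± 94.5 CPM (SD, n = 4), a 4.31-fold difference. Without Dlk1+ replicate 4 the Dlk1+ mean was 29.98 ± 30.3 CPM (SD, n = 3), so this library moves the size of the difference but not its direction. The difference was seen on both plates: 306 against 45.0 CPM on plate 5, and 345 against 106 CPM on plate 6, with 2 libraries of each sort.

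**Figure D1:**
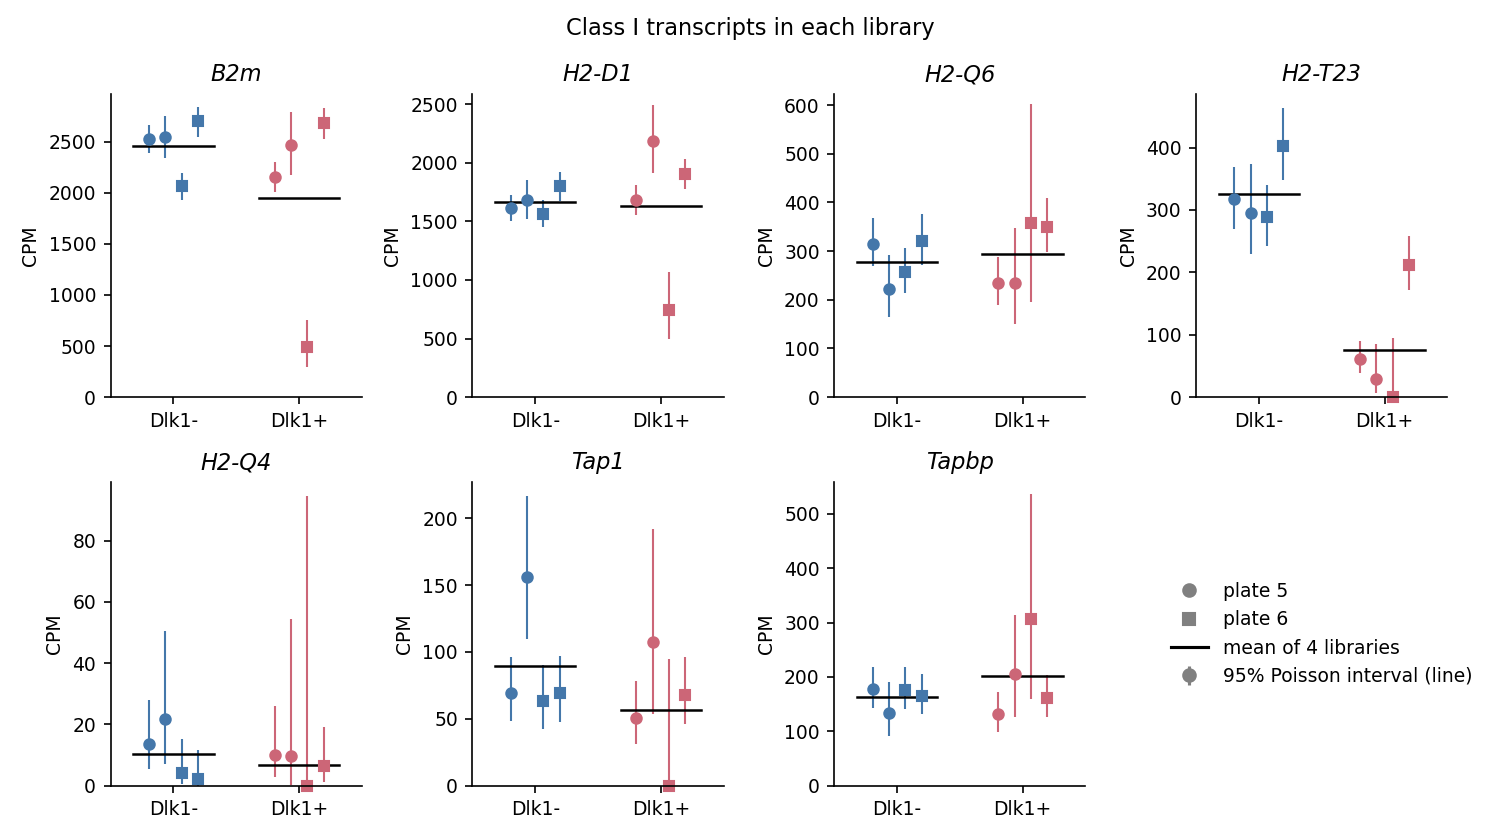
Level in CPM (y axes) of the 7 class I genes with a row, by sort. Points are libraries with their 95% Poisson interval, circles for plate 5 and squares for plate 6, and black bars are means of 4 libraries. H2-T23 is the 1 gene among the 7 whose Dlk1+ libraries (0 to 212 CPM) all lie below the Dlk1- libraries (288 to 403 CPM).

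The counts of H2-T23 can be read against depth. At the mean Dlk1- level, the Dlk1+ libraries would hold 129, 33.4, 12.7 and 149 H2-T23 UMIs in replicates 1 to 4, where 24, 3, 0 and 97 were counted. In Dlk1+ replicate 3, the smallest library, other members were low too: B2m had 19 UMIs where 96.1 would stand at the Dlk1- level, 5.06-fold lower, and H2-D1 had 29 where 65.1 would stand, while H2-Q6 and Tapbp were not lower. The 0 of H2-T23 in that library is therefore not a value that sets it apart from B2m. A count of 0 among its 39073 transcripts allows up to 76.8 CPM by the limit of 3 counts, which puts H2-T23 at least 4.24-fold lower there than in the mean of the Dlk1- libraries. The upper end of the two-sided 95% Poisson interval, which the plot of levels shows, is 94.4 CPM, or 3.45-fold lower. With a minimum of 500 in place of 1000 transcripts, that library had 75 cells, 75588 transcripts and 2 H2-T23 UMIs, or 26.5 CPM. The 3 UMIs of Dlk1+ replicate 2 give a 95% Poisson interval of 6.04 to 85.5 CPM, below the lowest interval bound of a Dlk1- library, 229 CPM in replicate 2. That of Dlk1+ replicate 4, 172 to 259 CPM, overlaps the intervals of Dlk1- replicates 2 (229 to 374 CPM) and 3 (242 to 341 CPM). Overlapping intervals do not decide whether counting error separates these libraries, and their counts were not tested against each other. Intervals and limits from counts cover counting error only.

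**Figure D2:**
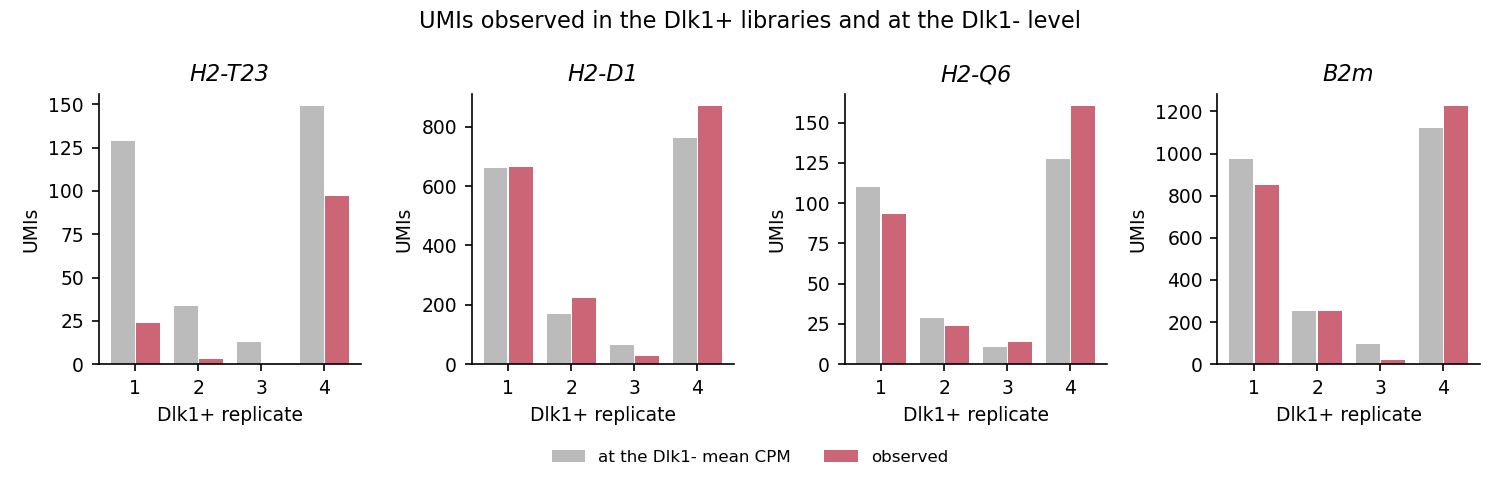
UMIs (y axes) of H2-T23, H2-D1, H2-Q6 and B2m in each of the 4 Dlk1+ libraries (x axes). Grey bars give the number the library would hold at the mean Dlk1- CPM and coloured bars the number counted: for H2-T23 the counts are 24, 3, 0 and 97 where the grey bars stand at 129, 33.4, 12.7 and 149.

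Across cells, the share with at least 1 H2-T23 UMI was 82.3%, 75.0%, 65.3% and 83.0% in the Dlk1- libraries. It was 25.6%, 11.1%, 0% and 58.0% in the Dlk1+ libraries. H2-T23 was thus detected in most Dlk1- cells, and in a majority of Dlk1+ cells in replicate 4 alone. A cell without a UMI may still have held the transcript. In Dlk1+ replicate 4, 7 of 81 cells carried 4 or more H2-T23 UMIs, as did 11 of 96, 7 of 36, 12 of 95 and 15 of 94 cells of the Dlk1- libraries. In Dlk1+ replicate 1 the highest number in a cell was 2, and in replicate 2 it was 1. Each cell was then thinned to 2000 UMIs, a depth that 30 cells of the Dlk1+ and 14 cells of the Dlk1- sort did not reach. The thinned share with H2-T23 was 44.8% ± 6.86 (SD, n = 4) in Dlk1- and 13.5% ± 15.9 (SD, n = 4) in Dlk1+. The thinned ranges, 35.9% to 52.3% and 0% to 35.4%, lay next to each other without overlap, and the lone Dlk1+ library near the Dlk1- range was again replicate 4. The 0% comes from replicate 3, of which 4 cells reached the depth. Leaving out that library gave a Dlk1+ mean of 18.0% ± 16.0 (SD, n = 3), and leaving out replicate 4 gave 6.21% ± 7.56 (SD, n = 3). The barcode rich in granulocyte genes does not carry that level: it held 1 of the 97 H2-T23 UMIs of the library.

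**Figure D3:**
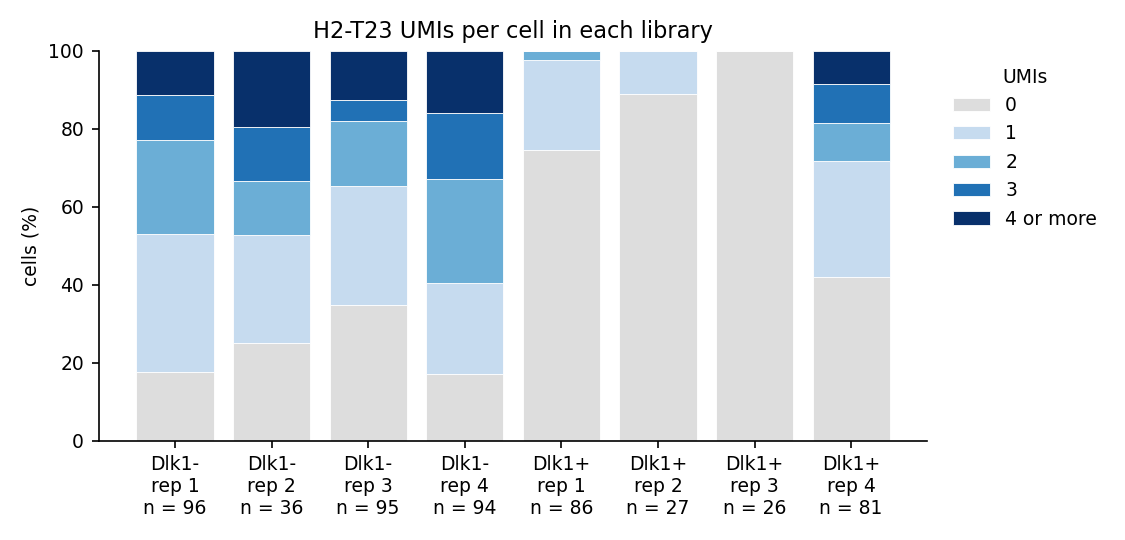
Share of cells (y axis, percent) with 0, 1, 2, 3 or at least 4 H2-T23 UMIs in each library (x axis, with the number of cells). Grey, the cells without a UMI, covers 74.4%, 88.9% and 100% in Dlk1+ replicates 1 to 3 and 42.0% in replicate 4, against 17.02% to 34.7% in Dlk1-.

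H2-D1, the classical heavy chain, did not share this pattern. Its level was 1614, 1682, 1567 and 1799 CPM in Dlk1- replicates 1 to 4, and 1683, 2188, 742 and 1903 CPM in Dlk1+ replicates 1 to 4. In Dlk1+, 3 libraries lay within or above the Dlk1- range and replicate 3 lay below it. The means were 1665 ± 101 CPM in Dlk1- and 1629 ± 626 CPM in Dlk1+ (SD, n = 4 each), and the mean of the other 3 Dlk1+ libraries without replicate 3 was 1925 ± 254 CPM (SD, n = 3). H2-D1 UMIs were found in 97.9%, 94.4%, 97.9% and 98.9% of cells of the Dlk1- libraries, and in 98.8%, 100%, 53.8% and 98.8% of cells of the Dlk1+ libraries. Nearly every cell outside Dlk1+ replicate 3 therefore carried H2-D1, whatever its sort.

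H2-Q6, a heavy chain gene of the Qa region with a level close to that of H2-T23 in Dlk1- cells, also overlapped between the sorts. It stood at 315, 221, 257 and 321 CPM in the Dlk1- libraries and at 235, 234, 358 and 350.3 CPM in the Dlk1+ libraries. The means were 278 ± 47.8 and 294 ± 69.2 CPM (SD, n = 4 each). H2-Q6 had 14 UMIs in Dlk1+ replicate 3, the library with 0 of H2-T23, where 10.9 UMIs would stand at the Dlk1- level. H2-Q4, a further Qa region gene, had 23 UMIs over all 8 libraries and 0 to 21.7 CPM per library, too few to be compared at this depth.

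B2m, the light chain that all class I heavy chains share, was the most abundant of the 7 genes. Its level was 2527, 2546, 2065 and 2699 CPM in the Dlk1- libraries and 2157, 2472, 486 and 2686 CPM in the Dlk1+ libraries. The sorts overlapped, with the low value of Dlk1+ replicate 3 far outside the range of the other 7 libraries. The means were 2459 ± 274 CPM in Dlk1- and 1950.2 ± 999.8 CPM in Dlk1+ (SD, n = 4 each). Without replicate 3 the Dlk1+ mean was 2438 ± 266 CPM (SD, n = 3). The lower Dlk1+ mean of B2m thus rests on that library.

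Of the loading machinery, Tap1 stood at 69.6, 156, 63.1 and 69.2 CPM in the Dlk1- libraries and at 50.6, 107, 0 and 67.9 CPM in the Dlk1+ libraries. The means, 89.5 ± 44.6 and 56.4 ± 44.5 CPM (SD, n = 4 each), differed by less than the spread within either sort. The 0 of Dlk1+ replicate 3 compares with 3.50 Tap1 UMIs at the Dlk1- level. By the limit of 3 counts, Tap1 was at least 1.17-fold lower there than in the mean of the Dlk1- libraries. The upper end of the two-sided Poisson interval, 94.4 CPM, lies above that mean. Whether Tap1 was lower in that library is therefore not decided at this depth. Tapbp stood at 178, 135, 177 and 166 CPM in the Dlk1- libraries and at 131, 205, 307 and 162 CPM in the Dlk1+ libraries. It was highest in Dlk1+ replicate 3, from 12 UMIs, the library in which H2-D1 and B2m were lowest.

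These levels were set beside the rest of the transcriptome with 1 fit across 5666 genes (limma-voom on library sums, Dlk1+ against Dlk1-). The fit called 2 genes at an adjusted p under 0.05, or 0.0353% of those tested, while 369 genes had an unadjusted p under 0.05. The called genes, named after their values were seen, were Dlk1, the sorted protein's own gene, at a mean of 507 CPM in Dlk1+ and 28.6 CPM in Dlk1-, and Timp3, a metalloproteinase inhibitor, at 187 and 33.5 CPM. None of the 6 members that were abundant enough to be tested was among the 2 called genes. The members were selected on this contrast, so that count carries no weight as a test. The fitted log2 differences, Dlk1+ minus Dlk1-, were -1.98 (SE 0.45) for H2-T23, -0.12 (SE 0.29) for H2-D1, 0.04 (SE 0.23) for H2-Q6, -0.54 (SE 0.38) for B2m, -0.52 (SE 0.42) for Tap1 and 0.10 (SE 0.25) for Tapbp. The median of the 6 was -0.32, beside -0.04 over all genes tested. H2-T23 was the 1 member whose Dlk1+ libraries all lay below the Dlk1- libraries in CPM, which held for 2.03% of all genes tested (115 of 5666). For H2-T23, leaving out Dlk1+ replicate 4 gave -2.98 and leaving out replicate 3 of that sort gave -1.58. For B2m and H2-D1 the differences were 0.01 and 0.20 without Dlk1+ replicate 3, so their sign turns on that library.

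Ratios within a library remove the library's total. For every 100 H2-D1 transcripts there were 19.6, 17.5, 18.4 and 22.4 of H2-T23 in the Dlk1- libraries. In the Dlk1+ libraries there were 3.605, 1.34, 0 and 11.2. The Dlk1- libraries lay close together, the Dlk1+ libraries were spread widely, and the groups did not overlap. On the log2 scale, with 0.5 added to both counts, the ratio was -2.36 ± 0.15 in Dlk1- and -4.95 ± 1.32 in Dlk1+ (SD, n = 4 each), a difference of -2.59. Leaving out Dlk1+ replicate 4 gave -3.19. Leaving out Dlk1+ replicate 3, the library whose value depends on the added 0.5, gave -2.28. Against B2m in place of H2-D1 the difference was -2.14, and against H2-Q6 it was -2.81. Neither overlapped between the sorts with 0.5 added, but with 3 counts allowed for the 0 of Dlk1+ replicate 3 its ratio to B2m could reach -2.66, above the Dlk1- range of -3.10 to -2.74. Its ratios to H2-D1 and H2-Q6 could reach -3.27 and -2.22, still below the Dlk1- libraries. The ratio of H2-Q6 to H2-D1 was -2.59 ± 0.24 in Dlk1- and -2.37 ± 0.95 in Dlk1+ and overlapped, as did that of B2m to H2-D1, 0.56 ± 0.11 and 0.11 ± 0.49 (SD, n = 4 each). The rule by which the genes were selected asks for this comparison, so it is given without a test.

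**Figure D4:**
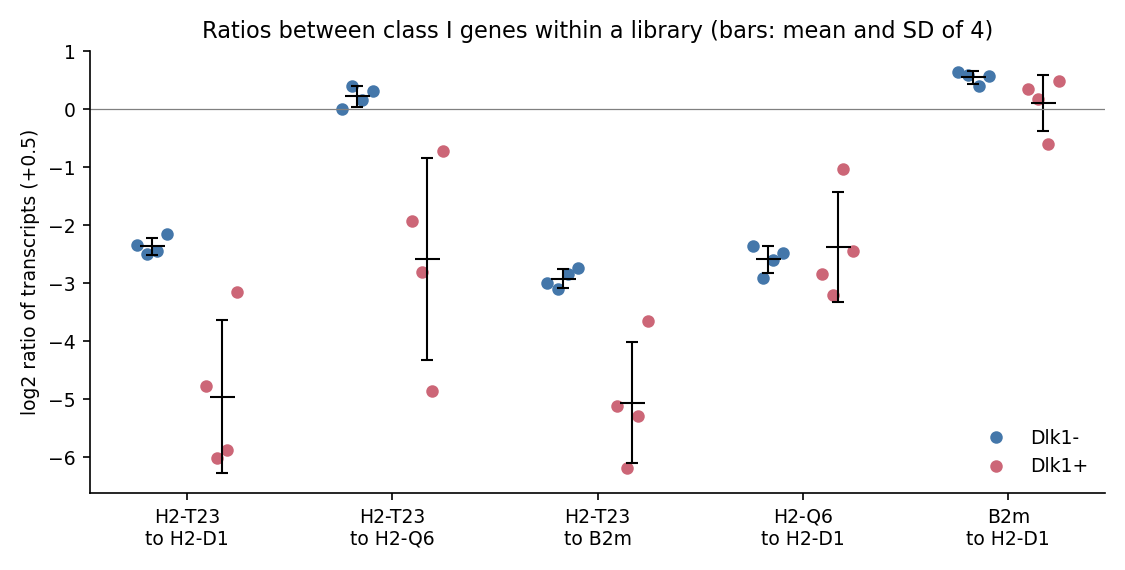
Log2 ratio of the transcripts of a pair of class I genes in the same library (y axis, 0.5 added to both), for 5 pairs (x axis). Points are libraries and bars the mean and SD of 4. With 0.5 added, the 3 ratios with H2-T23 do not overlap between the sorts (for H2-D1, -2.36 ± 0.15 in Dlk1- and -4.95 ± 1.32 in Dlk1+), whereas H2-Q6 to H2-D1 and B2m to H2-D1 do.

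Each deposited count stands for a molecule tagged at its 3' end, so levels of different genes are compared as molecules and need no division by length. By mean log2(CPM + 5) over the 8 libraries the order was B2m, H2-D1, H2-Q6, Tapbp, H2-T23, Tap1 and H2-Q4. By mean CPM, H2-T23 (201 CPM) stood above Tapbp (183 CPM). Neighbours in the first order were compared on the log2 scale with an exact two-sided sign-flip permutation test over the 8 libraries, whose smallest possible p is 0.0078, adjusted by Benjamini-Hochberg over 6 pairs. H2-D1 exceeded H2-Q6 by 2.47 ± 0.64 in 8 of 8 libraries (SD, n = 8; exact permutation, adjusted p = 0.0234). H2-Q6 exceeded Tapbp by 0.66 ± 0.33 in 8 of 8 libraries (SD, n = 8; exact permutation, adjusted p = 0.0234). Tap1 exceeded H2-Q4 by 2.29 ± 1.05 in 7 of 8 libraries (SD, n = 8; exact permutation, adjusted p = 0.0312). B2m and H2-D1 did not differ beyond their spread (0.33 ± 0.41, n = 8; exact permutation, adjusted p = 0.113), nor did H2-T23 and Tap1 (0.96 ± 1.41, n = 8; exact permutation, adjusted p = 0.113). Tapbp and H2-T23 differed by 0.67 ± 2.51 (n = 8; exact permutation, adjusted p = 0.562), and Tapbp was the higher in 3 of 8 libraries. The place of H2-T23 in the order is therefore not fixed: it was above Tapbp in all 4 Dlk1- libraries and in Dlk1+ replicate 4.

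Zeros in single cells were judged against the depth of each cell. If every cell of a library held its mean share of a gene, Poisson counting at the cells' own UMI totals would leave 22.001%, 20.7%, 26.9% and 16.5% of the Dlk1- cells without H2-T23. Observed were 17.7%, 25.0%, 34.7% and 17.02%. In the Dlk1+ libraries with H2-T23 UMIs, replicates 1, 2 and 4, counting gave 76.2%, 89.6% and 35.4% and 74.4%, 88.9% and 42.0% were observed. Dlk1+ replicate 3, without an H2-T23 UMI, is at 100% in both by construction and carries no information. Over the other 7 libraries, observed minus Poisson was 1.78 ± 4.54 percentage points (SD, n = 7) for H2-T23, from -4.29 to 7.81 points, with the observed share higher in 4 of 7. The mean difference was smaller than its spread over libraries, with the largest excess of zeros, 7.81 points, in Dlk1- replicate 3, followed by Dlk1+ replicate 4. For the other 6 genes the mean differences ran from 0.626 to 2.77 points. The highest H2-T23 count was 8 UMIs in 1 cell, in Dlk1- replicate 3.

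**Figure D5:**
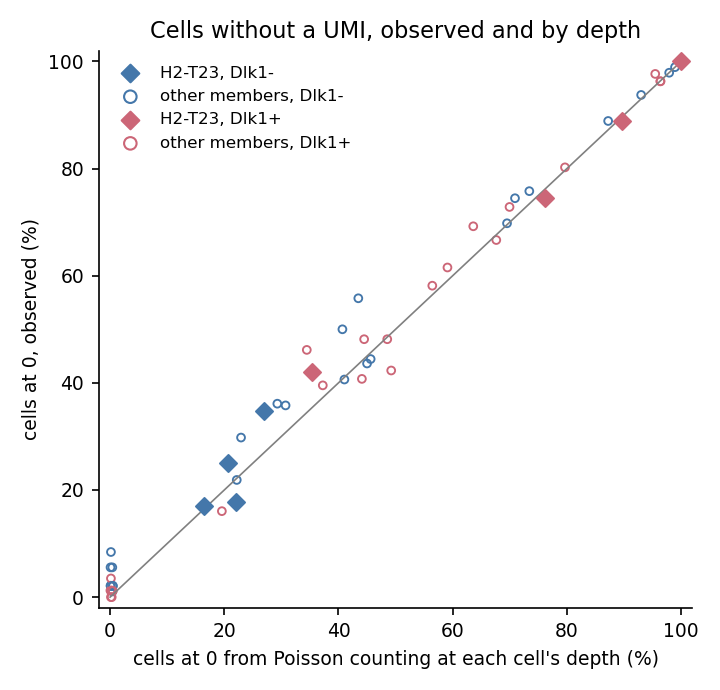
Share of cells without a UMI of a gene, observed (y axis, percent) against that given by Poisson counting at each cell's depth (x axis, percent), for the 7 genes in the 8 libraries. Filled diamonds are H2-T23 and open circles the other genes, the line marks equality, and the H2-T23 points with UMIs differ from it by -4.29 to 7.81 points; the H2-T23 point at 100% is Dlk1+ replicate 3, where both values are fixed by its count of 0.

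Within the Dlk1+ libraries, H2-T23 was also compared between cells with and without Dlk1 RNA among cells thinned to 2000 UMIs. In replicate 1, the 43 cells with Dlk1 RNA held 0.0698 H2-T23 UMIs per cell and the 39 cells without it 0.231. In replicate 4, the means were 0.451 in 51 cells and 0.464 in 28 cells. In replicate 2, they were 0.0556 in 18 cells and 0 in 7 cells. The direction was not shared by the 3 libraries, and cells of the Dlk1+ sort without Dlk1 RNA may have missed it at this depth. H2-T23 was low in both kinds of cell in replicate 1, against a mean of 0.667 UMIs per cell in the thinned cells of Dlk1- replicate 1.

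Class I levels were compared, in cells thinned to 2000 UMIs, between cells above and at or below their library's median for an interferon list. The list held 25 interferon-response genes and none of the class I genes. Its UMIs were summed per cell, and Ifitm1 (mean 1259 CPM over the 8 libraries) and Ifitm3 (624 CPM) made up most of the sum. The next highest gene, Ifi47, stood at 188 CPM. A library entered with at least 5 cells on each side, which 7 libraries had and Dlk1+ replicate 3, with 4 cells of that depth, had not. Cells high in the list held 4.40 ± 0.57 H2-D1 UMIs and the others 3.40 ± 0.50 (SD, n = 7), 29.3% more, and the difference was positive in 7 of 7 libraries (exact two-sided sign-flip permutation test, p = 0.0156, the smallest it can give, and adjusted p = 0.0938). For B2m the means were 5.87 ± 0.48 and 4.77 ± 0.88 (SD, n = 7), higher in 6 of 7 libraries (exact permutation, p = 0.0312, adjusted p = 0.0938). For H2-T23 they were 0.569 ± 0.419 and 0.403 ± 0.229 (SD, n = 7), higher in 4 of 7 libraries (exact permutation, p = 0.125, adjusted p = 0.250). None of the 3 differences passed after adjustment over the 6 tests planned. The other 3, on cells with and without the class II chaperone gene Cd74, were not run because 1 library alone had 5 Cd74-positive cells; adjusted over the 3 tests run, H2-D1 and B2m stood at 0.0469 (exact permutation, n = 7). The size of the difference moved with the settings. Over 12 alternatives it ran from 0.3802 UMIs per cell (thinned to 1500 UMIs, 8 libraries, exact permutation, adjusted p = 0.445) to 1.56 (cells with at least 1 UMI of the list against none) for H2-D1, from 0.996 at first. Those of B2m ran from 0.886 to 1.90 and those of H2-T23 from -0.0165 to 0.421 UMIs per cell.

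From cell to cell, the mean correlation of H2-D1 with B2m was higher than that of either with the sparser H2-T23. Across the cells of a library, thinned to 2000 UMIs, the mean Pearson r with H2-D1 over 7 libraries was 0.32 for B2m, and among 2682 genes outside the list it was highest for Tpt1 (0.29), the elongation factor gene Eef1a1 (0.29) and the ribosomal protein genes Rplp1 (0.28), Rps23 (0.25) and Rpl23 (0.24). With B2m it was highest for Eef1a1 (0.41), Rpl23 (0.40), Rplp1 (0.38), Tpt1 (0.35) and Rps9 (0.33). The median gene had 0.03 with H2-D1 and 0.04 with B2m. The summed interferon list had a mean r of 0.25 with H2-D1 and 0.29 with B2m, within or below the range of the genes named. For H2-T23 the mean r was 0.13 with H2-D1, 0.02 with B2m and -0.03 with H2-Q6. With the summed interferon list it was 0.13, from 0.006 to 0.22 between libraries and positive in 7 of 7. The median gene had 0.005 with H2-T23. The genes most like it were Suclg2 (0.24), Plekho2 (0.20), Serpinb6a (0.19), Ppp3cb (0.19) and Helz (0.19), and with Suclg2 the values ran from -0.10 to 1.0 between libraries, with 1.0 in Dlk1+ replicate 2, where 4.00% of the 25 thinned cells held H2-T23. These correlations are descriptions across cells that share a library and a fixed total of UMIs, and those of H2-T23 are weak correlations in sparse counts.

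Plate was not used in choosing the genes and was compared in a fit across the same 5666 genes with the sort as a second term. Of those genes, 0 were called (0% of genes tested) at an adjusted p under 0.05 by limma-voom, with 156 (2.75%) at an unadjusted p under 0.05, and 0 of the 6 tested members were called, with 1 of them, Tap1, at an unadjusted p under 0.05. H2-T23 stood at 226 CPM on plate 6 and 175 CPM on plate 5 (log2 difference 0.26, SE 0.44), and H2-Q6 at 321 and 251 CPM (0.09, SE 0.24). B2m (-0.73, SE 0.37), H2-D1 (-0.53, SE 0.27) and Tap1 (-0.84, SE 0.38; unadjusted p = 0.0405, limma adjusted p = 0.998) had lower fitted values on plate 6, the plate of Dlk1+ replicate 3. Without that library the values were nearer to 0 for B2m (-0.21) and H2-D1 (-0.22).

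Beyond the listed genes, 29 further genes of the class I pathway were examined, of which 27 had a row and 16 were tested. By limma-voom 0 of the 16 were called between the sorts, with 3 at an unadjusted p under 0.05, which 6.51% of all genes tested had, and 0 between the plates, with 0 at an unadjusted p under 0.05. The 3 largest differences relative to their SE were those of H2-T10 (log2 difference -0.98, SE 0.40), Psmb9 (-0.87, SE 0.38) and Tap2 (-0.91, SE 0.41). All 3 had lower fitted values in Dlk1+. Of the 16, 9 had lower and 7 higher fitted values in Dlk1+, and 0 of the 16 had groups that did not overlap, beside 3.14% of all genes tested. The median of their log2 differences was -0.17, beside -0.04 over all genes tested. The most abundant were the peptide-loading chaperone Calr (595 ± 123 CPM in Dlk1+ and 479 ± 41.0 CPM in Dlk1-), the proteasome activator subunit Psme1 (308.6 ± 125.97 and 229 ± 35.1 CPM), the chaperone Canx (194 ± 61.2 and 177 ± 31.97 CPM), the transcription factor Irf2 (129 ± 26.4 and 138 ± 18.1 CPM) and the immunoproteasome subunit Psmb8 (94.0 ± 64.2 and 141 ± 17.9 CPM; SD, n = 4 each). Tap2, which pairs with Tap1 in the transporter, stood at 30.7 ± 32.04 CPM in Dlk1+ and 69.9 ± 14.7 CPM in Dlk1- (SD, n = 4 each) and overlapped between the sorts. Nlrc5, the transactivator of class I genes, stood at 32.8 ± 7.995 and 25.6 ± 12.1 CPM (SD, n = 4 each). Tap2, Psmb9 and Nlrc5 were named after their values were seen. The other non-classical genes of the list did not share a direction. Those abundant enough to be tested, H2-T10 (fitted log2 difference -0.98, SE 0.40) and Cd1d1 (-0.55, SE 0.39), both had lower fitted values in Dlk1+. H2-T10 stood at 42.3 ± 37.4 CPM in Dlk1+ and 91.2 ± 20.1 CPM in Dlk1-, H2-M3 at 9.98 ± 7.38 and 24.8 ± 4.93 CPM, and Cd1d1 at 17.6 ± 15.4 and 34.4 ± 9.40 CPM (SD, n = 4 each). Mr1 stood at 16.5 ± 6.62 CPM in Dlk1+ and 7.29 ± 4.51 CPM in Dlk1-, and H2-T3 at 8.25 ± 5.70 and 8.18 ± 4.01 CPM (SD, n = 4 each). H2-T24 was at 0.632 and 1.05 CPM, H2-Q10 at 0 in every library, and all 7 overlapped between the sorts. No test set H2-T23 against these genes.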

How the data were processed

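RNA was measured with CEL-Seq2, which marks each molecule at its 3' end by well and by a random tag, the unique molecular identifier (UMI). The authors deposited 1 table per library of estimated transcript counts per gene and barcode, corrected for UMI collisions and not scaled for depth. The submitters' processing notes name BWA 0.6.2-r126 and mm10; the annotation, strand setting and read filters are not given in the sources used here. Inverting the UMI collision correction gave whole counts to within 3.64e-12. Cells were barcodes of the library's own sort with at least 1000 transcripts, without 10 barcodes that the selection rule leaves out; no doublet caller was run. Transcripts were summed per library and fitted with limma-voom (limma 3.58.1, R 4.3.3), scaled by trimmed mean of M-values, with Benjamini-Hochberg adjustment at 0.05. A gene was tested with a CPM equal to 10 counts at the median library in at least 4 libraries and a total of at least 15. Alternatives with edgeR and DESeq2, planned only if the tables passed an automatic check of the unit as counts, were not run because their format kept it from being checked. On simulated counts for the comparison of sorts (5666 genes), recovery was 0% at a true 2-fold change, 84.95% at 4-fold and 100% at 8-fold, with 0, 5 and 10 false calls. The simulated counts had the same preset spread between libraries for every gene, which was not estimated from these data. These shares therefore do not give the recovery for genes that vary more between libraries. Other depth minimums, scalings, filters and left-out libraries were tried.

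The members and gene lists were chosen with earlier results of these data known. Named genes were the members, the 5 most abundant pathway genes and any called, and the 5 genes most correlated across cells with H2-D1, B2m and H2-T23, among genes with at least 0.1 thinned UMIs per cell. Of 18174 symbols, 17407 were in GENCODE release 21. Measures planned on H2-K1 and H2-D1 together were made on H2-D1 alone, as H2-K1 had no row; where H2-K1 reads were counted is not known. Promoters of the 10 members came from RefSeq.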

Additional observations from a re-analysis of the deposited data

Results flagged for a closer look

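In 28 sets of 4 libraries, of which chance would set about 1 in 20 apart, 3 held a library far from the other 3. Tap1 stood at 156 CPM in Dlk1- replicate 2, against 63.1 to 69.6 CPM in the other Dlk1- libraries, and its log2 ratio to H2-D1 there was -3.41, against -4.68 to -4.52. The log2 ratio of Tapbp to H2-D1 was -1.24 in Dlk1+ replicate 3, against -3.67 to -3.39 in the other Dlk1+ libraries, from 12 Tapbp and 29 H2-D1 UMIs.

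Barcodes outside the range of a library's own sort, which were in no comparison, carried 23663 UMIs over the 8 libraries. Among these were 63 of H2-D1, 45 of B2m and 7 of H2-Q6, each above the 3 counts that an observed 0 allows. H2-T23 had 3 such UMIs. How far such molecules also reach the barcodes of the sorted cells was not tested.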

How the results depend on the processing

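The genes called between the sorts, 2 at first, numbered 4 with the 10 barcodes kept, 1 with a minimum of 2000 transcripts, 1 with cells thinned to 2000 UMIs and 0 with limma-trend on log2(CPM + 1). Leaving out 1 library gave 1 to 19, the highest without Dlk1+ replicate 4. H2-T23 was among the 19 called without that library, and among the 3 called with no filter on low counts. It was selected on this contrast, so these calls carry no weight as a test. With the replicate block 1 gene was called, and the fitted H2-T23 difference was -2.09 (SE 0.45). Same-numbered libraries correlated by 0.0367 to 0.0644 in their deviations, and each library correlated best with its own number. The first fit did not pair libraries by number, and whether the numbers mark pairs was not tested. Between plates 14 genes were called with no filter on low counts. B2m by interferon list differed by 1.09 UMIs with thinning to 1500 (exact permutation, adjusted p = 0.0469). The cause of these changes was not tested. The H2-T23 to H2-D1 log2 difference ran from -3.19 to -2.07 over 17 alternatives and that of the 6 members' median from -0.51 to -0.02 over 21. The fitted H2-T23 difference, -1.98, ran from -3.68 with limma-trend on log2(CPM + 1) to -1.58 without Dlk1+ replicate 3, and was -1.93 without the granulocyte-rich barcode, an alternative chosen after seeing the data. Library-sum precision is limited by Dlk1+ replicate 3. The H2-K1 ratio, the Cd74 split, edgeR and DESeq2 were not run.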
